A study of Mus musculus with 3 samples.

Results

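Homeobox genes encode transcription factors that bind DNA through a homeodomain, and most of them lie outside the Hox clusters. The 107 genes described here were taken from 21851 protein-coding genes of the GENCODE M21 basic annotation by symbol, as the numbered members of 26 families: Alx, Barx, Cdx, Dlx, Emx, En, Evx, Gsx, Hhex, Irx, Isl, Lhx, Lmx1, Meox, Msx, Nkx, Otx, Pax, Pbx, Phox2, Pitx, Pou, Prrx, Tlx, Vax and the SIX-domain family. Pax5 and Meis1 were left out by the rule, and Pou2af1 was left out because it encodes a coactivator without a homeodomain. Pax1, Pax2, Pax8 and Pax9 lack a complete homeodomain but were kept by symbol, and they are counted among the homeobox genes. No measured value entered the choice, and no filter on low values was applied, so every one of the 107 genes is counted below.

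MEL cells, an established mouse erythroleukemia line that stands for red cell precursors, were profiled by DNase-seq. DNase I cuts open chromatin, and called peaks mark promoters, enhancers and other accessible sites. There was 1 condition with no treatment named in the labels, studied in 2 biological replicates: the replicate 1 list of peaks came from 2 libraries that the authors merged, and the replicate 2 list came from 1 library. A promoter peak here is a 150-bp deposited peak whose centre lay at most 1000 bp from where any protein-coding transcript of the gene begins.

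Homeodomain proteins set the identity of tissues, body regions and cell types in the embryo, and their genes are typically switched on in a few lineages and held silent elsewhere. Many of the silent genes sit in CpG-rich promoters marked by Polycomb proteins. In blood, members of the TALE class (Pbx and its partners Meis and Pknox), Hhex and the octamer factors of the POU class have known roles, whereas most NK-like, LIM and paired genes are known from brain, sense organs, limb, heart and gut.

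Of the 107 homeobox genes, 22 had a promoter peak in the replicate 1 list (20.6%, Wilson 95% interval 14.0 to 29.2%), against 58.3% of all protein-coding genes. In the replicate 2 list 17 of the 107 had one (15.9%, 10.2 to 24.0%), against 49.4% of all genes. These same 17 genes had a promoter peak in both lists, where the share of all genes was 49.4%, and 85 homeobox genes had none in either list. Every one of the 17 replicate 2 peaks was touched by a replicate 1 peak. The share of homeobox genes was thus below that of all genes in each list, and the intervals did not overlap. The intervals cover counting error over genes, not error between cultures. Each replicate gave 1 list under 1 condition, so samples could not be tested against each other and no p-value is given. Other families of developmental regulators were counted the same way. Among 39 Hox cluster genes, 11 (28.2%) and 7 (17.9%) had a promoter peak in the replicate 1 and replicate 2 lists. Among 76 forkhead, SOX and T-box genes, the counts were 28 (36.8%) and 22 (28.9%). The intervals of both groups overlapped those of the homeobox genes outside the clusters in each list. Overlap alone does not show that shares are alike, and the differences between these groups were not tested. In each list the share of Hox cluster genes lay inside the homeobox interval. The share of forkhead, SOX and T-box genes lay above that interval in each list.

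**Figure D1:**
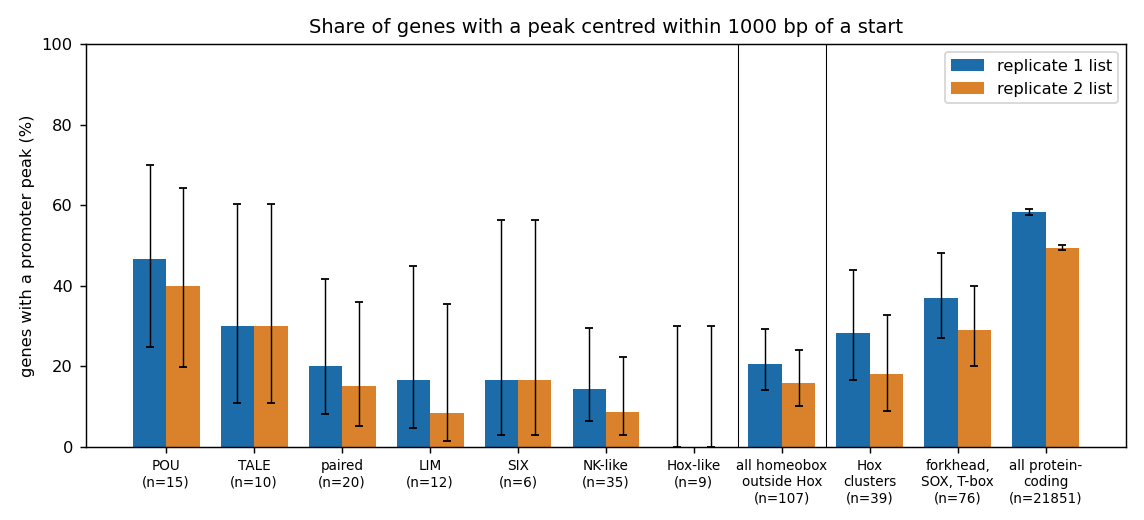
Share of genes with a promoter peak (vertical axis, percent) in the replicate 1 and replicate 2 lists for 7 homeobox classes, all 107 homeobox genes outside the Hox clusters, and comparison groups at the right. Whiskers are Wilson 95% intervals; the homeobox genes stood at 20.6% and 15.9%, against 58.3% and 49.4% of all protein-coding genes.

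By class, the counts ran as follows. POU genes, which pair a POU-specific domain with the homeodomain, gave 7 of 15 with a promoter peak in replicate 1 and 6 of 15 in replicate 2. TALE genes (Pbx and Irx) had 3 of 10 in each list, and all 3 were Pbx genes. Paired and paired-like genes had 4 and 3 of 20, LIM genes 2 and 1 of 12, and SIX-class genes 1 of 6 in each list. NK-like genes, the largest class, had 5 and 3 of 35. Cdx, Evx, Gsx and Meox genes, relatives of the Hox genes outside the clusters, had 0 of 9 in each list, and a count of 0 of 9 has an upper Wilson bound of 29.9%. The class intervals were wide and overlapped each other, as the plot of shares by class shows. Those of POU genes (24.8 to 69.9% and 19.8 to 64.3%) and TALE genes (10.8 to 60.3% in each list) included the shares of all genes, 58.3% and 49.4%. That of SIX-class genes (3.0 to 56.4%) did so in replicate 2 alone. The other class intervals lay below the shares of all genes. No member had a promoter peak in either list in 15 of the 26 families: Alx, Barx, Cdx, Emx, En, Evx, Gsx, Irx, Isl, Lmx1, Meox, Msx, Otx, Phox2 and Tlx.

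The sequences below show what promoters with a peak looked like, and they were chosen to cover 5 classes and both GC box and CTCF matches. They are in mm10 (GRCm38), 5′ to 3′ on the strand of the gene, and leave out annotated exons. Capitals mark GGGCGG or its complement CCGCCC, the GC box bound by SP and KLF factors. In Pou2f2 the capitals mark a match to the CTCF consensus, which overlaps a GC box match. The Pbx4 stretch has no capitals and is the RefSeq (GRCm38.p6) sequence before its first exon, whose last 40 bases lie in the peak. Isl1, a LIM gene with no promoter peak in either list, is shown as a contrast from RefSeq. Capitals there mark GATAA, the core bound by GATA factors.
Six5 peak, chr7:19093896-19094045, plus strand: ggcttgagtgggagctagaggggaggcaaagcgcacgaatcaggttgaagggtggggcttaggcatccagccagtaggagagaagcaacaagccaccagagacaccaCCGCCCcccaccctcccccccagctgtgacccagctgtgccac
Pbx3 peak, chr2:34372756-34372905, minus strand: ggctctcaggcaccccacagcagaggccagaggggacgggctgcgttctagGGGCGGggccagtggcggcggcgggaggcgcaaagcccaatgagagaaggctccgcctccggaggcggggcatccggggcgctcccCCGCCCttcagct
Pbx4, chr8:69832374-69832475, plus strand: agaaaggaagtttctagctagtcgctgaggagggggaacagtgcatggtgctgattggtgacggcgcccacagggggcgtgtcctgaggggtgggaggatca
Vax2 peak, chr6:83711096-83711238, plus strand: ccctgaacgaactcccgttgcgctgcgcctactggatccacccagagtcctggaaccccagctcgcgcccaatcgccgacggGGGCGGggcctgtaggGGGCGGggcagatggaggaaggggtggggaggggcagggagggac
Pitx3 peak, chr19:46148496-46148645, minus strand: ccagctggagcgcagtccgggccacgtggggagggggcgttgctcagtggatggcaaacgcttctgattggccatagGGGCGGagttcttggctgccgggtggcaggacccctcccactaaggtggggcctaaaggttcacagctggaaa
Pou2f2 peak, chr7:25133156-25133305, minus strand: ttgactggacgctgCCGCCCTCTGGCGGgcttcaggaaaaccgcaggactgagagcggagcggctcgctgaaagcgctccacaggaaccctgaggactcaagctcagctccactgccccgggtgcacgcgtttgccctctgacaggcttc
Isl1, no peak, chr13:116309690-116309938, minus strand: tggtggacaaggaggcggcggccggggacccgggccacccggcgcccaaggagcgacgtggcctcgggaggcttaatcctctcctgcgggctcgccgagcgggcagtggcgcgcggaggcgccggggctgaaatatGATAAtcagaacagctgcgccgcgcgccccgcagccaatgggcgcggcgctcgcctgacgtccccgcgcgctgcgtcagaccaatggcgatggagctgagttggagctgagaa

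These stretches were GC-rich. The 150 bases of the Pbx3 peak had 74% G or C and 13 CpG pairs, and the 150 bases of the Six5 peak had 63.3% and 3 CpG pairs. The 249 bases before Isl1 had 71.1% G or C and 33 CpG pairs, with no peak of either list closer than 10.9 kb. The Isl1 stretch thus had more CpG pairs per base than the Pbx3 or Six5 peak.

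Each peak carries the authors' score, a whole number from 1 to 150 without a stated unit, which ranks peaks within 1 list and cannot be compared between the lists. The median of the highest promoter score per gene was 130 for the 22 homeobox genes and 139 for all genes with a promoter peak in replicate 1. In replicate 2 it was 42 for the 17 homeobox genes and 63 for all genes. Of the homeobox genes, 6 stood above the median of all genes in replicate 1, and 6 did in replicate 2. Most homeobox genes with a promoter peak thus had a highest promoter score below the median of all genes with one. Against all peaks of a list, promoters and others together, 21 of the 22 in replicate 1 and 12 of the 17 in replicate 2 had a promoter peak in the higher-scoring 50%. Most promoter peaks of all genes lay there too. Of all genes, 53.3% had such a peak in replicate 1, where 58.3% had any promoter peak. In replicate 2 the shares were 44.4% and 49.4%.

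**Figure D2:**
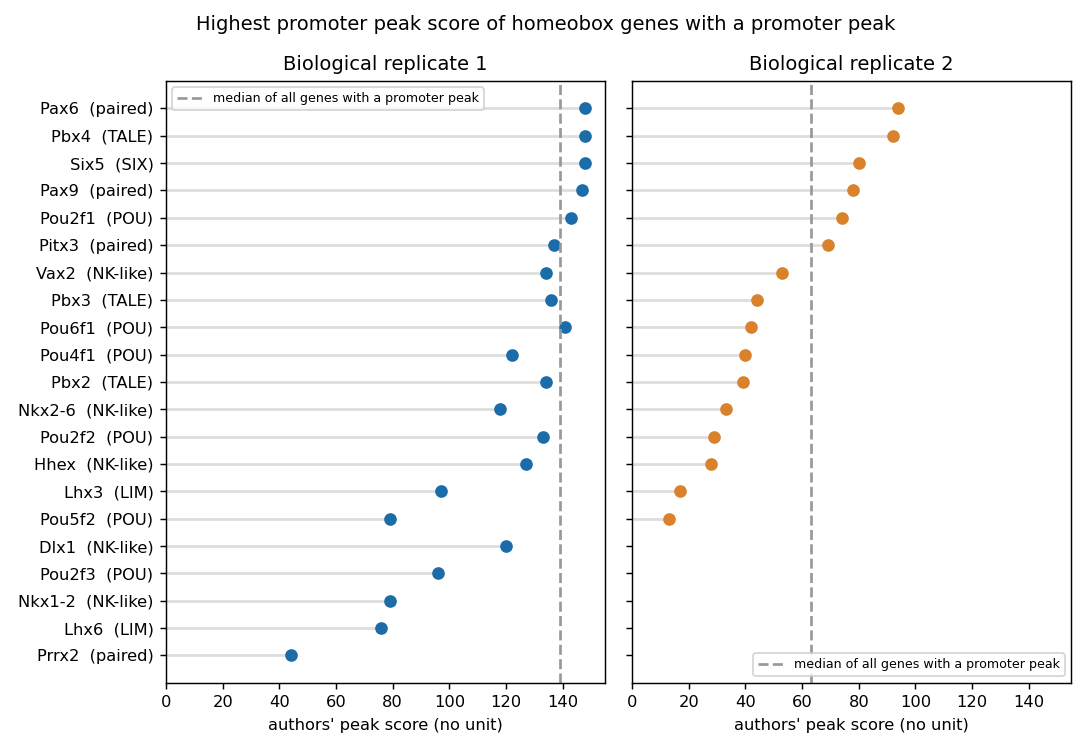
Highest promoter peak score (horizontal axis, the authors' score without unit) of the homeobox genes with a promoter peak that are reported by name, in the replicate 1 list (left) and the replicate 2 list (right), with the class in brackets. The dashed line is the median over all genes with a promoter peak, 139 and 63; Pax6, Pbx4, Six5, Pax9 and Pou2f1 lay above it in both lists.

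In replicate 1 Pax6, Pbx4 and Six5 shared the top score of the homeobox promoters, and in replicate 2 Pax6 led. Pax6 (ENSMUSG00000027168.21, chr2:105668900-105697364, plus strand) directs eye, forebrain and endocrine pancreas development, and its promoter peak scored 148 in replicate 1 and 94 in replicate 2. These scores exceeded the highest promoter score of 87.9% and 89.7% of the genes with a promoter peak in their lists. The peak took the same position in both lists, chr2:105675396-105675545, centred 38 bp downstream of the nearest start in an untranslated exon. Pax6 has 8 annotated protein-coding starts, and peaks marked some of them. The outermost start and the next one, 2960 bp further in, had no promoter peak in either list. The 6 starts from 6291 to 7229 bp further in had the peak. In replicate 1 a hotspot, the wider enriched region that the authors also called, ran for 5905 bp over these inner starts. In replicate 2 the same stretch held shorter hotspots, of which that with the promoter peak was 1835 bp wide. Inside the gene and beyond the inner starts lay intronic peaks, of which the strongest scored 143 in replicate 1 and 61 in replicate 2, about 9091 and 9111 bp from the outermost start. An intronic peak far into the gene, 24431 bp from the outermost start, scored 100 and 20. In all, 9 replicate 1 peaks lay inside Pax6, 5 in introns and 4 in untranslated exons, and 8 replicate 2 peaks, 6 in introns and 2 in untranslated exons.

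**Figure D3:**
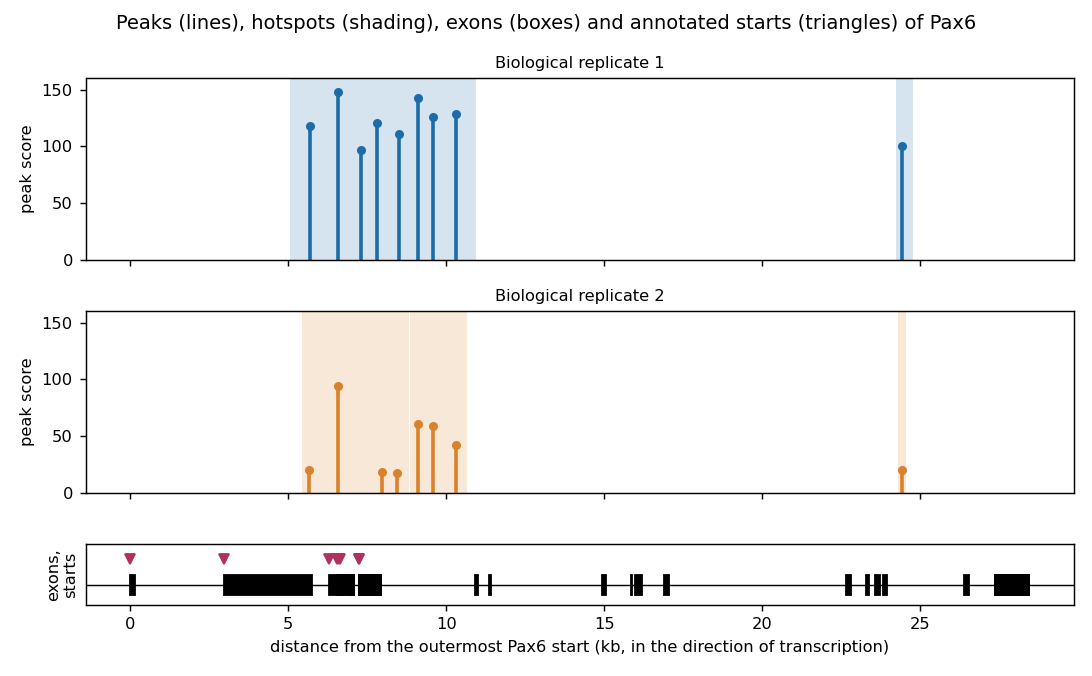
Peaks (lines with the authors' score, vertical axis) and hotspots (shading) inside Pax6 in replicate 1 (top) and replicate 2 (middle), by distance in kb from the outermost start. The bottom row gives exons (boxes) and annotated protein-coding starts (triangles); the highest peak, 148 and 94, lies at the inner starts, and the outermost start has none.

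Pax9 (chr12:56691767-56712822), needed for tooth, palate and thymus formation and without a complete homeodomain, was the other Pax gene with a promoter peak. It scored 147 and 78, within 28 bp of an inner start in both lists. Its locus also holds Nkx2-1, a regulator of lung, thyroid and forebrain, and Nkx2-9, and neither of these had a promoter peak. Pitx3, which acts in lens and midbrain dopamine neurons, scored 137 and 69 at the identical position in both lists, 245 bp upstream of its start. That peak is the sequence with the GC box shown above. Prrx2, a gene of limb and face mesenchyme, had a replicate 1 peak with a score of 44, the lowest of the 22, and none in replicate 2. The other 16 paired genes had no promoter peak. Among them Pax2, a kidney and inner ear gene named after its values were seen, had its nearest peak 1194 bp from a start, just outside the window. Pax2 also carried intronic peaks, the strongest with scores of 140 and 74.

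Among TALE genes, 3 of the 4 Pbx genes had a promoter peak in each list, and none of the 6 Irx genes did. The remaining Pbx gene had no replicate 2 peak within 50 kb either. Pbx proteins are DNA-binding partners of Hox and Meis proteins. Pbx4 (chr8:69832491-69872292, plus strand) scored 148 and 92, and its peak took the same position in both lists, centred 20 bp inside the first exon. Pbx3 scored 136 and 44 at the position printed above, 787 bp upstream of its outermost protein-coding start. A stronger replicate 2 peak of 75 lay 1127 bp from that start, outside the window, so the promoter score is not the highest of the region. That peak spanned the upstream end of the annotated gene, where no protein-coding transcript begins. The highest replicate 2 peak inside Pbx3 scored 95 and lay in an intron, 11867 bp from the start. Pbx2 scored 134 and 39, with the highest replicate 1 peak 345 bp downstream of a start and the highest replicate 2 peak 12 bp upstream of one. Both places were called in both lists, with scores of 37 at the first in replicate 2 and 127 at the second in replicate 1.

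The 6 Irx genes, which pattern neural tube, heart and limb, had no promoter peak in either list. They lie in 2 clusters, chosen for description after their values were seen. From Irx1 to Irx4 on chromosome 13, a stretch of 1312 kb held 11 replicate 1 peaks and 1 replicate 2 peak. That is 0.839 and 0.0762 peaks per 100 kb, against 10.3 and 3.26 over the assembled chromosomes. From Irx3 to Irx6 on chromosome 8, 882 kb held 21 and 2 peaks, or 2.38 and 0.227 per 100 kb. Both stretches thus held fewer peaks per 100 kb than the genome. The chromosome 8 peaks were not spread evenly, since 12 replicate 1 and 2 replicate 2 peaks lay within 50 kb of Irx5. Its closest peaks scored 140 and 82, at 1414 and 1394 bp upstream of a start.

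POU genes had the most members with a promoter peak of the classes, 7 and 6 of 15 (46.7% and 40%), against 58.3% and 49.4% of all genes. Pou2f1, which encodes the widely expressed octamer factor Oct-1, scored 143 and 74, at 373 and 313 bp upstream of its nearest protein-coding start. Both peaks lay closer to the start of the long noncoding RNA Gm26665, at 91 and 31 bp, so the promoter they belong to cannot be told apart by position. Pou2f2, which encodes Oct-2 of B cells and neurons, scored 133 and 29. Its highest promoter peak was centred 19 bp upstream of a start in replicate 1. In replicate 2 it was centred 719 bp upstream, in the sequence with the CTCF match above. Each position was in fact called in both lists, with scores of 27 at 19 bp in replicate 2 and 110 at 719 bp in replicate 1. Higher peaks lay outside the window. One in an intron, 23459 bp upstream of the outermost protein-coding start, scored 145 in replicate 1 and 80 in replicate 2. Pou2f3, a regulator of tuft cells, scored 96 in replicate 1, at 942 bp, and had no promoter peak in replicate 2.

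The brain and sense organ genes of the POU class varied. Pou6f1 scored 141 and 42, with the highest replicate 1 peak 973 bp downstream of a start and the highest replicate 2 peak 167 bp upstream of one. Each was overlapped in the other list, by a replicate 2 peak of 38 and a replicate 1 peak of 130. The upstream replicate 2 peak was closer to the start of the noncoding RNA Gm49492, at 53 bp. Pou4f1, which encodes Brn3a of sensory neurons, scored 122 and 40 within 72 bp of its start. Pou5f2, expressed in male germ cells, scored 79 and 13. Its replicate 2 score exceeded the highest promoter score of 0.703% of the genes with a promoter peak in that list. Pou5f1, which encodes the pluripotency factor Oct4, had no promoter peak. It lay 3533 and 8033 bp from the nearest peak and had 41 and 15 peaks within 50 kb of the gene. The Pou3f genes of the nervous system had none either.

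The remaining promoter peaks came from SIX-class, NK-like and LIM genes. Six5, which lies beside the myotonic dystrophy gene Dmpk, scored 148 and 80, at 643 and 623 bp upstream of its start. These peaks were 10010 and 10030 bp from the start of Dmpk, the nearest other coding start. The other 5 SIX-class genes, regulators of eye, kidney and muscle progenitors, had no promoter peak. Vax2, a gene of the ventral retina, scored 134 and 53, at 133 and 93 bp upstream. Hhex, which acts in liver, thyroid and blood progenitors, scored 127 and 28 at the same position 908 bp upstream of a start, inside its own annotated gene. Nkx2-6, a pharyngeal and outflow tract gene, scored 118 and 33. Lhx3, a pituitary and motor neuron gene, scored 97 and 17, within 18 bp of a start. In replicate 1 alone, Dlx1 and Lhx6, both of forebrain interneurons, scored 120 and 76, and Nkx1-2 scored 79.

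Where the peaks sat was also recorded. The centre of the highest promoter peak lay outside the gene for 12 members, in an intron for 6 and in an untranslated exon for 4 in replicate 1. The numbers were 8, 5 and 4 in replicate 2. Of these peaks, 11 in replicate 1 and 10 in replicate 2 were centred within 200 bp of a start. None of them was closer to the start of another protein-coding gene. The median hotspot under them was 1645 bp wide in replicate 1, against 1868 bp under all promoter peaks, and 376 bp wide in replicate 2, against 483 bp. The places and distances of the highest peak were not counted over all genes. With the nearest peak instead, 14.0% and 12.1% of homeobox genes had one within 200 bp, against 49.0% and 42.4% of all genes. Within 1000 bp it was 20.6% and 15.9%, against 58.3% and 49.4%.

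Promoter CpG content did not track with promoter peaks among homeobox genes as it did over all genes. CpG content was the ratio of observed to expected CpG pairs within 500 bp of the outermost start, cut into 5 classes of equal size over all genes. Its median was 0.674 for homeobox genes and 0.571 for all genes, and 58 homeobox genes (54.2%) fell into the upper classes 4 and 5. In class 5, the richest, 5 of 21 homeobox genes (23.8%) had a promoter peak in each list, against 85.9% of all genes in replicate 1 and 80.6% in replicate 2. In class 4, 1 of 37 (2.70%) had one in each list, against 80% and 75.1%. In class 3, 8 of 33 (24.2%) and 5 of 33 (15.2%) had one, against 64.6% and 56%. In class 2 the order was the other way, with 8 of 15 (53.3%) and 6 of 15 (40%) against 38.3% and 24.9%. Class 1 held 1 homeobox gene, Pax4, without a peak, against 22.5% and 10.5%. Over all genes the share with a promoter peak grew with each class, while over homeobox genes it did not.

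**Figure D4:**
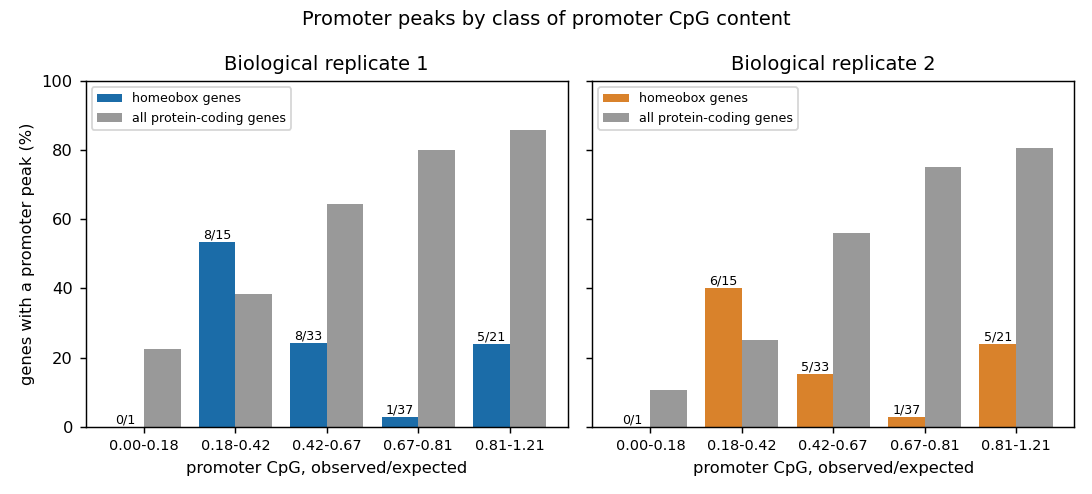
Share of genes with a promoter peak (vertical axis, percent) by class of promoter CpG content (horizontal axis, observed over expected) for homeobox genes (coloured, with counts) and all protein-coding genes (grey), in each list. The share over all genes climbed to 85.9% and 80.6% in the richest class, while 5 of 21 homeobox genes there had a promoter peak.

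The members of class 5 with a promoter peak were Hhex, Pbx3, Pou2f1, Pou4f1 and Six5, and that of class 4 was Pou6f1. In class 2, low in CpG, the members with one in replicate 2 included Lhx3, Nkx2-6, Pbx2, Pou2f2 and Pou5f2, and Pou2f3 and Prrx2 joined them in replicate 1. The class 2 difference depended on which start was used. With CpG content taken at each gene's most CpG-rich start, a choice made after seeing the data, 4 of 11 homeobox genes (36.4%) had a promoter peak in each list, against 37.8% of all genes in replicate 1 and 23.5% in replicate 2. With CpG content taken within 250 bp, class 2 gave 7 of 15 and 4 of 15 homeobox genes (46.7% and 26.7%), against 38.4% and 24.9%. In classes 4 and 5 the homeobox genes stayed below all genes at the richest start. In replicate 1 they gave 2 of 30 and 6 of 24, against 80.3% and 85.4% of all genes in those classes, and in replicate 2 they gave 1 of 30 and 6 of 24, against 75.3% and 80.1%. Reads from repeated sequence can be lost in mapping. At least 91.9% of the 32-bp words around the starts of each homeobox gene occurred once in the genome. That share was not counted over all genes, and whether mapping affected the peak counts was not tested.

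Homeobox genes also have fewer annotated starts than all genes, with a median of 1 against 2, which gives fewer windows to hold a peak. Among homeobox genes the median was 2 starts with a replicate 1 promoter peak and 1 without. With the outermost start alone, 19 and 14 homeobox genes had a promoter peak, against 56.0% and 47.3% of all genes. Whether the number of starts contributes to the lower share was not tested.

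Around the genes, peaks were sparser near the start but not absent from the region. The nearest peak lay at a median of 4417 bp from a start for homeobox genes and 223 bp for all genes in replicate 1, and at 10129 bp and 1133 bp in replicate 2. From 50 kb upstream to 50 kb downstream, homeobox genes had a median of 14 peaks in replicate 1, against 28 for all genes, and 5 in replicate 2, against 9. Homeobox genes are shorter, with a median of 6.99 kb against 17.4 kb, so this stretch covers less sequence. At 20 kb from the nearest start the difference had narrowed: 86.9% of homeobox genes and 87.2% of all genes had a replicate 1 peak within that distance, and 69.2% and 77.0% had a replicate 2 peak. Within 50 kb it was 97.2% against 92.8% in replicate 1, and 84.1% against 84.3% in replicate 2.

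**Figure D5:**
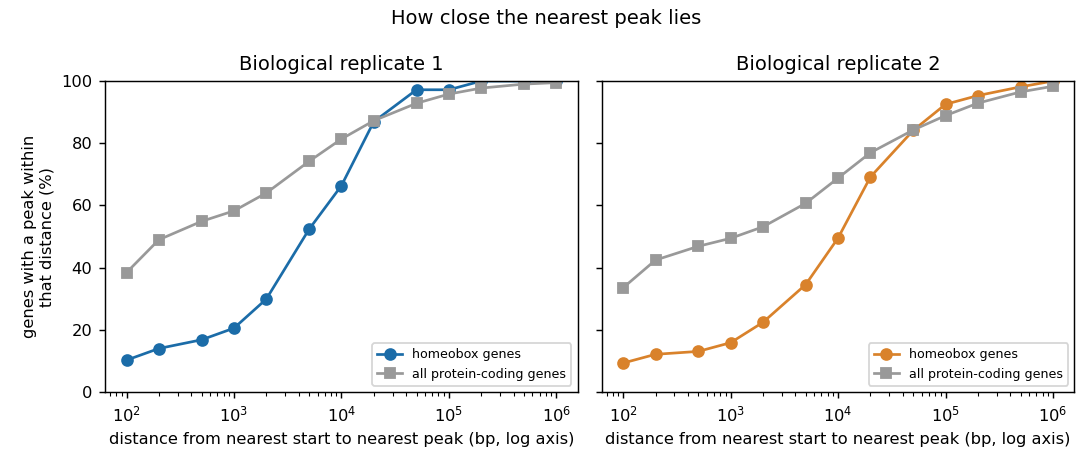
Share of genes (vertical axis, percent) with a peak within a given distance of their nearest protein-coding start (horizontal axis, bp, log scale), for homeobox genes (coloured) and all protein-coding genes (grey) in each list. Within 1000 bp the shares were 20.6% against 58.3% in replicate 1 and 15.9% against 49.4% in replicate 2, and by 50 kb the curves had met or crossed.

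Some members without a promoter peak lay among many peaks. The 8 homeobox genes without a promoter peak that had the most replicate 2 peaks within 50 kb of the gene were led by Emx1, a cortical gene, with 28 replicate 1 and 16 replicate 2 peaks. Pou5f1 followed with the counts given above. Cdx1, a gut and axial patterning gene, had 37 and 13, and Tlx2, of enteric neurons, had 39 and 13. Nkx6-3, of stomach, had 26 and 12, Nkx2-3, of spleen and gut, 32 and 11, and Phox2a, of noradrenergic neurons, 22 and 11. These 8 were picked by their replicate 2 counts, so the counts do not describe members without a promoter peak in general. Homeobox genes with a replicate 1 promoter peak had medians of 35 and 10 peaks in that stretch, against 10 and 4 for those without, and these counts include the promoter peaks themselves.

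At the other end, 8 homeobox genes (7.48%) had no replicate 2 peak within 100 kb of a start, against 11.1% of all genes, and 3 (2.80%) had no replicate 1 peak, against 4.2%. These shares were not above those of all genes. Among them were Irx1, Irx2, Isl1, Irx3, Pax3, Alx1 and Meox2, singled out after their values were seen, with nearest replicate 2 peaks at 955.3, 426.7, 402.7, 205.8, 199.5, 164.9 and 133.3 kb. Isl1, a motor neuron, heart and pancreas gene whose start is printed above, had a replicate 1 peak at 10.9 kb, whereas Irx3 and Alx1 had none within 100 kb there either. Among neighbouring pairs, Dlx5 and Dlx6, which share enhancers in the forebrain and limb, had 0 peaks of either list in the 18.8 kb they span. The assembled chromosomes held 10.3 and 3.26 peaks per 100 kb, so few peaks fall in a stretch this short on average. Outside the span, the nearest peak lay 1446 bp from a Dlx5 start in both lists. Within 50 kb of Dlx5 there were 7 replicate 1 and 3 replicate 2 peaks. Dlx1 and Dlx2 span 18.6 kb that held 9 replicate 1 and 3 replicate 2 peaks.

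Several members, picked out after their values were seen, missed the window narrowly. The nearest peaks of Otx2, a forebrain and eye gene, lay 1015 bp from a start in both lists, those of Lhx9 at 1214 and 1074 bp, those of Pax2 at 1194 bp in both and those of Pou4f3 at 1216 and 1236 bp. Just inside lay the replicate 1 peak of Pou2f3 at 942 bp and the Hhex peaks at 908 bp. The highest replicate 1 peak of Pou6f1 lay at 973 bp, but its nearest lay at 147 bp. With the window widened to 2500 bp, 37 homeobox genes in replicate 1 and 25 in replicate 2 had a promoter peak, against 66.2% and 54.5% of all genes.

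Short sequence motifs were counted on both strands of the highest promoter peak per gene, as a description of letters rather than of binding. The GC box GGGCGG occurred in 11 of 17 homeobox promoter peaks in replicate 2 (64.7%), against 47.7% of all promoter peaks, but in 9 of 22 in replicate 1 (40.9%), against 41.2%. The Vax2 and Pbx3 peaks printed above held it more than once. The GATA core GATAA occurred in 4 of 22 homeobox peaks in replicate 1, against 11.6% of all, and in 2 of 17 in replicate 2, against 10.5%. Those peaks included that of Hhex in both lists and those of Nkx2-6 and Pou2f1 in replicate 1. The E-box CANNTG occurred in 11 of 22 and 9 of 17, against 39.5% and 39.4%. The ETS core CCGGAAG, common at housekeeping promoters, occurred in 1 of 22 (Pou2f2) and 0 of 17, against 12.4% and 14.2%. The octamer ATGCAAAT, recognised by Oct-1 and Oct-2, occurred in 1 homeobox peak in each list, that of Pax6, against 0.900% and 0.943%. The homeodomain core TAATTA occurred in no homeobox peak of either list, against 0.814% and 0.769%. The AP-1 site TGACTCA occurred in the Lhx6 peak in replicate 1 and in none in replicate 2, against 3.05% and 2.61%. The CTCF consensus, added after seeing the data, matched the Pou2f2 peak in replicate 2 and none in replicate 1, against 1.49% and 1.28%. With 22 and 17 peaks, 1 peak moves a share by several percentage points.

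Genes listed as partners of homeodomain factors had promoter peaks in a larger share than the homeobox genes counted above. The list was chosen with earlier results of these data known. Its TALE partners (Meis, Pknox and Tgif genes) are themselves TALE homeobox genes, outside the families counted above. The contrast is therefore not one of partner genes against all homeobox genes. Of 24 listed partner genes, 18 had a promoter peak in replicate 1 and 16 in replicate 2, beside the 58.3% and 49.4% of all genes. Of LIM partners, Ldb1, the adaptor that holds LIM proteins together, scored 146 and 59, and Lmo2, which joins Ldb1 with GATA1 and TAL1 in red cell precursors, scored 136 and 42. Lmo4 scored 145 and 57, Lmo1 67 and 9, and Ldb2 and Lmo3 had no promoter peak. TALE partners gave 6 of 6 in replicate 1 and 5 of 6 in replicate 2. Pknox1 scored 145 and 77, Meis2 143 and 47, Meis3 117 and 25, and the repressors Tgif1 and Tgif2 143 and 66 and 134 and 52, whereas Pknox2 scored 53 in replicate 1 alone.

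Partners of SIX-domain proteins had a promoter peak in 2 of 6 cases in each list. Eya3 and Eya2, coactivators of SIX-domain proteins, scored 143 and 75 and 110 and 36, while Eya1, Eya4, Dach1 and Dach2 had no promoter peak in either list. Groucho corepressors, bound by NK-like, SIX-domain and paired proteins, had 5 of 5 in replicate 1 and 4 of 5 in replicate 2. Tle3 scored 145 and 89, Tle4 146 and 80, Tle6 144 and 71 and Tle1 142 and 69, and Tle2 scored 99 in replicate 1 alone. Pou2af1, the B cell coactivator of Oct-1 and Oct-2, scored 82 and 17.

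Marker genes were read beside these counts to check the labelled cell type. All 7 red cell markers (Gata1, Klf1, Tal1, Epor, Nfe2, Gfi1b and Hbb-bt) had a promoter peak in both lists. Muscle markers had 0 of 3 in each list, neuron markers 2 and 1 of 4, fibroblast markers 3 and 2 of 3, markers of pancreas, liver and gut 2 and 1 of 3, and B cell markers 1 and 0 of 2. In replicate 1 the markers of other cell types reached scores of 132 (Col1a1), 127 (Pdgfra), 119 (Tubb3) and 108 (Syn1), and the red cell markers ranged from 128 (Hbb-bt) to 149 (Epor). In replicate 2 the markers of other cell types scored at most 35 (Col1a1), and the lowest red cell marker scored 40 (Hbb-bt). Whether other cells contributed to any homeobox promoter peak was not tested. A deposited peak says that a site was called accessible in a population of cells, and neither transcription nor the share of cells with the site open was measured.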

How the data were processed

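DNase-seq peaks and hotspots of MEL cells were used as the authors deposited them on mm10, per the labels. Replicate 1 regions were called on an alignment merged from 2 libraries (technical replicates 1 and 3) and replicate 2 regions on 1 library, per the deposited notes. Read totals, the aligner and the caller are not given in the sources used here. The depth is therefore unknown. Each deposited peak carries the authors' score, whose meaning is not stated, and each deposited hotspot a −log10 q-value, as its format defines it, capped at 100. Hotspots served as positions. After 67 and 7 exact repeats were dropped, the lists held 281600 and 89046 peaks, with median scores of 73 and 32, and 224643 and 82150 hotspots.

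Positions were set against the GENCODE M21 basic annotation and the GRCm38 sequence. The highest-scoring promoter peak stood for a gene. Shares have Wilson 95% intervals. Overlap meant at least 1 bp. RefSeq (GRCm38.p6) promoters matched 74 of 107 members. Python 3.11.15, numpy 2.4.6, pandas 2.3.3, pysam 0.24.0, samtools 1.23.1 and matplotlib 3.10.9 were used, and the code was checked on simulated data. The members, gene lists, motifs and alternatives were chosen with earlier results of these data known. Some members count in the totals but are not reported by name here. Named by rule were otherwise the members with a replicate 2 promoter peak, the members with a replicate 1 peak alone, the 8 members without a promoter peak with most replicate 2 peaks within 50 kb, and partner genes; others are marked where named or serve as examples chosen after their values were seen. Alternatives were other promoter widths, hotspots in place of peaks, the higher-scoring 50%, equal list length, the outermost start alone, other membership, other CpG windows and each replicate alone.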

Additional observations from a re-analysis of the deposited data

How the results depend on the processing

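The count of homeobox genes with a promoter peak moved most with the window. Within 2500 bp it was 37 in replicate 1, against 66.2% of all genes. Within 500 bp it was 18 and 14, against 54.9% and 46.9%. With hotspots in place of peaks it was 25 and 20, against 59.5% and 50.04%. In the higher-scoring 50% of each list it was 21 and 12, against 53.3% and 44.4%, and at equal list length 15 and 17, against 50.7% and 49.4%. Required in both lists, the count was 17, or 14 at equal list length, against 49.4% and 48.2% of all genes. With either replicate left out it ranged from 17 to 22. Without Pax1, Pax2, Pax8 and Pax9, which lack a complete homeodomain, it was 21 and 16, and with Pou2af1 23 and 18. In each of these settings run over all genes, the homeobox share stayed below that of all genes. The median number of peaks around a homeobox gene was 3 in replicate 1 and 1 in replicate 2 within 10 kb, against 10 and 3 for all genes, and 4 in replicate 1 at equal list length, against 9. No paired analysis was possible because the lists come from 1 condition and the results from no test. List length, which sets how many weak peaks were called, differs between the replicates, and its cause was not tested.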
